A study of Mus musculus with 2 samples.

Results

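The genes described here write, erase and act beside the methyl marks of DNA. They are the DNA methyltransferase genes Dnmt1, Dnmt3a and Dnmt3b, the methylcytosine dioxygenase genes Tet1, Tet2 and Tet3, and the chromatin gene Asxl1. These 7 genes were chosen by name from 21911 protein-coding genes, and their promoters, gene bodies and 50-kb flanks were examined for open chromatin. Single-cell ATAC-seq, in which a transposase cuts accessible DNA in each nucleus, was carried out on hematopoietic stem cells (HSCs) from the bone marrow of female C57BL/6 mice. One library was made from 10-week-old animals (young HSCs) and one from 20-month-old animals (aged HSCs), and the labels name no transgene and no treatment in either. The sort kept cells that were positive for Sca-1, c-kit and CD150 and negative for Lin, CD34, CD48, Flt3 and the marker labelled IL-7, for which the methods name an antibody against IL-7Rα. The number of mice behind each library is not stated. With 1 library per age no test between ages was possible, so values are given with 95% intervals that cover counting error only, and the difference between ages cannot be told apart from a difference between libraries.

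DNA methylation in mammals is laid down mostly at CpG dinucleotides. Dnmt1 copies the pattern onto the new strand after replication, whereas Dnmt3a and Dnmt3b methylate sites that carried no mark. The TET enzymes oxidize methylcytosine, which is the first step of its removal, and use 2-oxoglutarate as a cofactor. ASXL1 is a partner of the deubiquitinase BAP1, which removes ubiquitin from a histone at Polycomb target genes. DNMT3A, TET2 and ASXL1 are the genes in which mutations are most often found in the expanded blood clones of older people, and loss of Dnmt3a or Tet2 in mice increases HSC self-renewal.

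The young library held 4887 cells and the aged library 3404 cells that had been called as cells by the authors and had 3000 to 20000 in-peak fragments. They gave 50069575 and 38659257 unique fragments on assembled chromosomes, of which 69.2% and 67.6% lay in peaks called here on both libraries. The median was 9890 fragments per cell in young HSCs and 11020 in aged HSCs. Fragments shorter than 150 bp made up 60.3% of the young and 55.6% of the aged fragments, and 4.17% and 7.31% of cells were marked as likely doublets and kept. The libraries shared 28 barcodes among those called as cells. All values below are fragments per 1000000 fragments in peaks (FPM), and every ratio is log2(aged / young), with 1 fragment added to each count. Promoters of HSC markers summed to 163 FPM in young and 165 FPM in aged HSCs over 9 genes, with the window of Mecom nearly closed at 0.520 and 0.536 FPM. T cell marker promoters summed to 9.27 and 6.43 FPM and lymphoid progenitor markers to 39.1 and 29.7 FPM, of which Flt3 alone made up 33.8 and 25.5 FPM, while Dntt stood at 1.18 and 1.38 FPM. Megakaryocyte markers summed to 112 and 101 FPM, with Itga2b at 30.8 and 24.1 FPM, and B cell markers summed to 21.0 and 22.3 FPM, and no marker of these lists was at 0. The part of these differences in the results below was not tested.

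The 5' end of the annotated gene was not the accessible start for every member. The window of 1 kb on either side of the 5' end held 60.3 FPM in young HSCs for Asxl1, 46.1 FPM for Tet2, 28.2 FPM for Dnmt3a and 22.3 FPM for Dnmt3b. It held 0.722 FPM for Dnmt1, 0.693 FPM for Tet1 and 2.14 FPM for Tet3, which in fragments is 25, 24 and 74. In aged HSCs the values in the same order were 53.7, 42.8, 28.0, 21.5, 0.803, 0.574 and 1.87 FPM. Transcript starts within 500 bp of each other were therefore merged, and the start with the most fragments was taken as the main start of each gene. It lay 7265 bp downstream of the 5' end in Dnmt1, 21672 bp downstream in Tet1 and 2692 bp downstream in Tet3.

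The CpG content of these starts spanned most of the range found at mouse promoters. RefSeq gives 11 start windows for the 7 genes on build GRCm38.p6, each from 250 bases before to 50 bases after a start. The windows held from 2 CpGs, at the closed 5' end of Dnmt1, to 57 CpGs at Tet2, against a median of 7 over 32851 promoters. The window at the main start of Dnmt1 held 33 CpGs, more than 91.4% of promoters, that of Dnmt3b held 30, that of Tet1 held 17 and that of Asxl1 held 13. The 250 bases before the closed Dnmt1 5' end and before the Tet2 start are shown because they mark the ends of this range, each read in the direction of transcription with every CpG in capitals.
Dnmt1, chr9:20959889-20960138, minus strand: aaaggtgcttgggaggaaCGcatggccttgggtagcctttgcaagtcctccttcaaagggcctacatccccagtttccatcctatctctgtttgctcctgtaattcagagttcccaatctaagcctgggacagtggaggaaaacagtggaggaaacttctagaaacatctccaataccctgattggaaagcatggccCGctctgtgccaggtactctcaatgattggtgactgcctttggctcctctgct
Tet2, chr3:133544391-133544640, minus strand: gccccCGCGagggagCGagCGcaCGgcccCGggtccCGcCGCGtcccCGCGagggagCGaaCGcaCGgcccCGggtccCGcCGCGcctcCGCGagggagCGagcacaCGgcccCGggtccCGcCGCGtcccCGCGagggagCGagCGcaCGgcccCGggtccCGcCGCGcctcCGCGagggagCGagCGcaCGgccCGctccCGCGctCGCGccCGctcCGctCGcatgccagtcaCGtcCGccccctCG
The Dnmt1 stretch holds 2 CpGs and the Tet2 stretch 51 CpGs in the same length.

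Among the methyltransferase genes, the ratio at the main start lay below 0 for Dnmt1 with an interval that excluded 0, while the intervals of both de novo genes included 0. These intervals overlapped, and with scaling to the median ratio over protein-coding promoters that of Dnmt1 included 0 as well (-0.20 to 0.03). The main start of Dnmt1 (chromosome 9, position 20952623 on the minus strand of mm10) had 46.7 FPM in young HSCs (95% interval 44.4 to 49.0) and 42.4 FPM in aged HSCs (39.9 to 44.96). The log2 ratio was -0.14 (-0.25 to -0.03). Dnmt3a has 2 neighbouring starts whose windows overlap, at 3806498 and 3807058 on chromosome 12. The second had 40.3 FPM in young HSCs (38.3 to 42.5) and 39.6 FPM in aged HSCs (37.3 to 42.1), a log2 ratio of -0.03 (-0.14 to 0.09). The first had 32.0 and 31.9 FPM. A further open start of Dnmt3a, 85737 bp downstream at 3891744, had 28.3 FPM in young HSCs and 26.4 FPM in aged HSCs, and its interval (-0.24 to 0.04) included 0. The other 9 annotated Dnmt3a starts held at most 1.91 FPM in young HSCs. Dnmt3b, at 153649454 on chromosome 2, had 22.3 FPM (20.7 to 23.9) in young HSCs and 21.5 FPM (19.8 to 23.4) in aged HSCs, with a log2 ratio of -0.05 (-0.21 to 0.11). Its germline paralogue Dnmt3c, which lies in the downstream flank of Dnmt3b, was nearly closed in both libraries with 0.520 and 0.612 FPM.

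The main starts of the dioxygenase genes had ratios on both sides of 0, and none passed 1.2-fold. Tet1 was the 1 member whose main start was higher in aged HSCs with an interval above 0. Scaling to the median promoter ratio adds 0.05 to every log2 ratio, which turns the main starts of Dnmt3a and Dnmt3b, whose intervals include 0, to ratios of 0.03 and 0.00. The start at 62887324 on the minus strand of chromosome 10 had 24.1 FPM (22.5 to 25.8) in young HSCs and 27.4 FPM (25.4 to 29.4) in aged HSCs, a log2 ratio of 0.18 (0.04 to 0.33). A second Tet1 start, 43692 bp downstream of the 5' end, had 16.9 and 15.9 FPM, and another had 5.40 and 5.66 FPM, with intervals of the ratio that included 0. Tet3 was lower at its main start, with an interval below 0 under each of the 3 scalings. That start, at 83456392 on the minus strand of chromosome 6, had 50.2 FPM (47.8 to 52.6) in young HSCs and 43.1 FPM (40.6 to 45.7) in aged HSCs, a log2 ratio of -0.22 (-0.33 to -0.11). The next Tet3 start, 17409 bp downstream of the 5' end and used by 3 annotated transcripts, stood at 35.8 FPM in young HSCs and 36.3 FPM in aged HSCs, a log2 ratio of 0.02 (-0.10 to 0.14). The intervals of the ratios at these Tet3 starts did not overlap. Tet2, at 133544302 on the minus strand of chromosome 3, had 49.6 FPM (47.3 to 52.0) in young HSCs and 47.3 FPM (44.7 to 49.99) in aged HSCs, with a log2 ratio of -0.07 (-0.18 to 0.04).

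Asxl1 had the most open start of the 7 genes in each library. Its start at 153345845 on chromosome 2 had 60.4 FPM (57.9 to 63.1) in young HSCs and 53.9 FPM (51.1 to 56.8) in aged HSCs, a log2 ratio of -0.16 (-0.26 to -0.07). The gene 2500004C02Rik starts within 100 bp of the centre of this peak, so the fragments cannot be assigned to 1 of the promoters. A second Asxl1 start, 1974 bp downstream, had 6.24 and 6.58 FPM.

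In young HSCs the main starts followed the order Asxl1, Tet3, Tet2, Dnmt1, Dnmt3a, Tet1 and Dnmt3b. The intervals of neighbours overlapped between Tet3 and Tet2, between Tet2 and Dnmt1, and between Tet1 and Dnmt3b. In aged HSCs the order was Asxl1, Tet2, Tet3, Dnmt1, Dnmt3a, Tet1 and Dnmt3b, and each neighbouring pair from Tet2 to Dnmt3a overlapped. Tet1 and Dnmt3b, which could not be separated in young HSCs, did not overlap in aged HSCs.

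**Figure D1:**
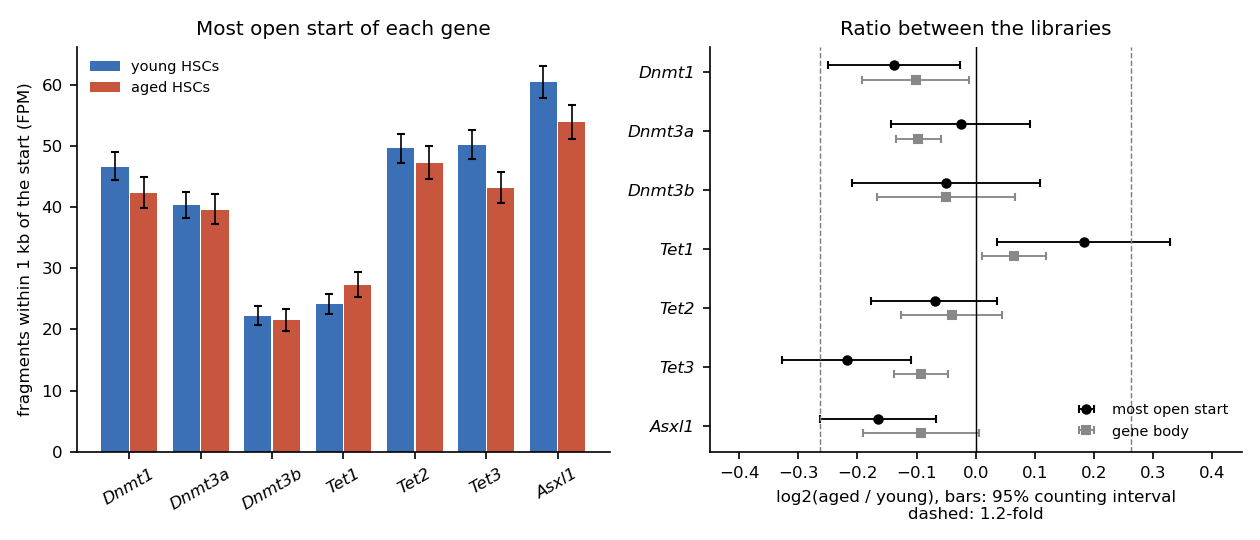
Left, fragments within 1 kb of the most open start of each gene (FPM) in the young library (blue) and the aged library (red), with 95% Poisson intervals as error bars. Right, log2(aged / young) at the most open start (circles) and over the gene body (squares) with 95% counting intervals and the 1.2-fold limits as dashed lines; Tet1 lies above 0 on both measures and no gene passes 1.2-fold.

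None of the 7 main starts differed by 1.2-fold between the libraries, and neither did any of the 7 windows at the gene 5' ends. Among all promoters with at least 20 fragments, 13.6% were at least 1.2-fold higher and 8.41% at least 1.2-fold lower in aged HSCs. Among promoters with at least 1000 fragments, the range in which all 7 main starts lie, the shares were 1.79% and 1.85%, so 0 of 7 is near the background. The median log2 ratio over these well-covered promoters was -0.07, to which scaling to the median promoter ratio adds 0.05. The interval of Tet3 lay below that median and the interval of Tet1 above it, whereas the intervals of the other 5 genes included it.

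Over the gene bodies Tet1 was the 1 member whose interval lay above 0. Tet1 (chromosome 10, 62804570 to 62908996) had 178 FPM (174 to 183) in young HSCs and 186 FPM (181 to 192) in aged HSCs, a log2 ratio of 0.06 (0.01 to 0.12). The other 6 genes had ratios below 0, which with scaling to the median promoter ratio turned to 0.00 for Dnmt3b and 0.01 for Tet2. Dnmt3a (chromosome 12, 3806007 to 3914443) had 392 FPM (385 to 398) and 366 FPM (359 to 374), a log2 ratio of -0.10 (-0.13 to -0.06). Tet3 (chromosome 6, 83362373 to 83459084) had 268 and 251 FPM, a log2 ratio of -0.09 (-0.14 to -0.05). Dnmt1 (chromosome 9, 20907209 to 20959888) had 69.4 and 64.7 FPM, with a ratio of -0.10 (-0.19 to -0.01). The intervals of Dnmt3b (40.7 and 39.3 FPM), Tet2 (76.7 and 74.6 FPM) and Asxl1 (59.2 and 55.5 FPM) included 0. With scaling to all fragments the Tet1 interval also included 0 (-0.02 to 0.09) and that of Asxl1 lay below 0, and with scaling to the median promoter ratio those of Dnmt1 and Tet3 included 0. None of the 7 passed 1.2-fold. Among all gene bodies with at least 20 fragments, 13.9% were higher and 5.96% lower, with a median of -0.02. The 7 bodies each held at least 2438 fragments over both libraries. The share among gene bodies of such depth was not determined, so 0 of 7 cannot be set against a matched background.

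Per kb of gene body, Dnmt3a was the most open of the 7 genes in both libraries. It held 3.61 FPM per kb in young HSCs and 3.38 in aged HSCs, followed by Tet3 with 2.77 and 2.60, and Tet1 with 1.71 and 1.78. Tet2 was the least open with 0.942 and 0.916 FPM per kb. Without the windows around annotated starts, Dnmt3a kept 317 of its 392 FPM in young HSCs, whereas Dnmt1 kept 21.1 of 69.4 FPM and Tet2 31.8 of 76.7 FPM. In this remainder 3 genes were lower in aged HSCs with intervals below 0, namely Dnmt3b with 18.2 and 15.6 FPM (-0.22, interval -0.40 to -0.04), Dnmt3a with 317 and 293.99 FPM (-0.11, interval -0.15 to -0.07) and Tet3 with 184 and 173 FPM (-0.09, interval -0.14 to -0.03). Tet1 was higher, with 123 and 130 FPM and a ratio of 0.08 (0.02 to 0.15). Of these intervals, those of Dnmt3b and Tet3 included 0 with scaling to the median promoter ratio and that of Tet1 with scaling to all fragments.

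**Figure D2:**
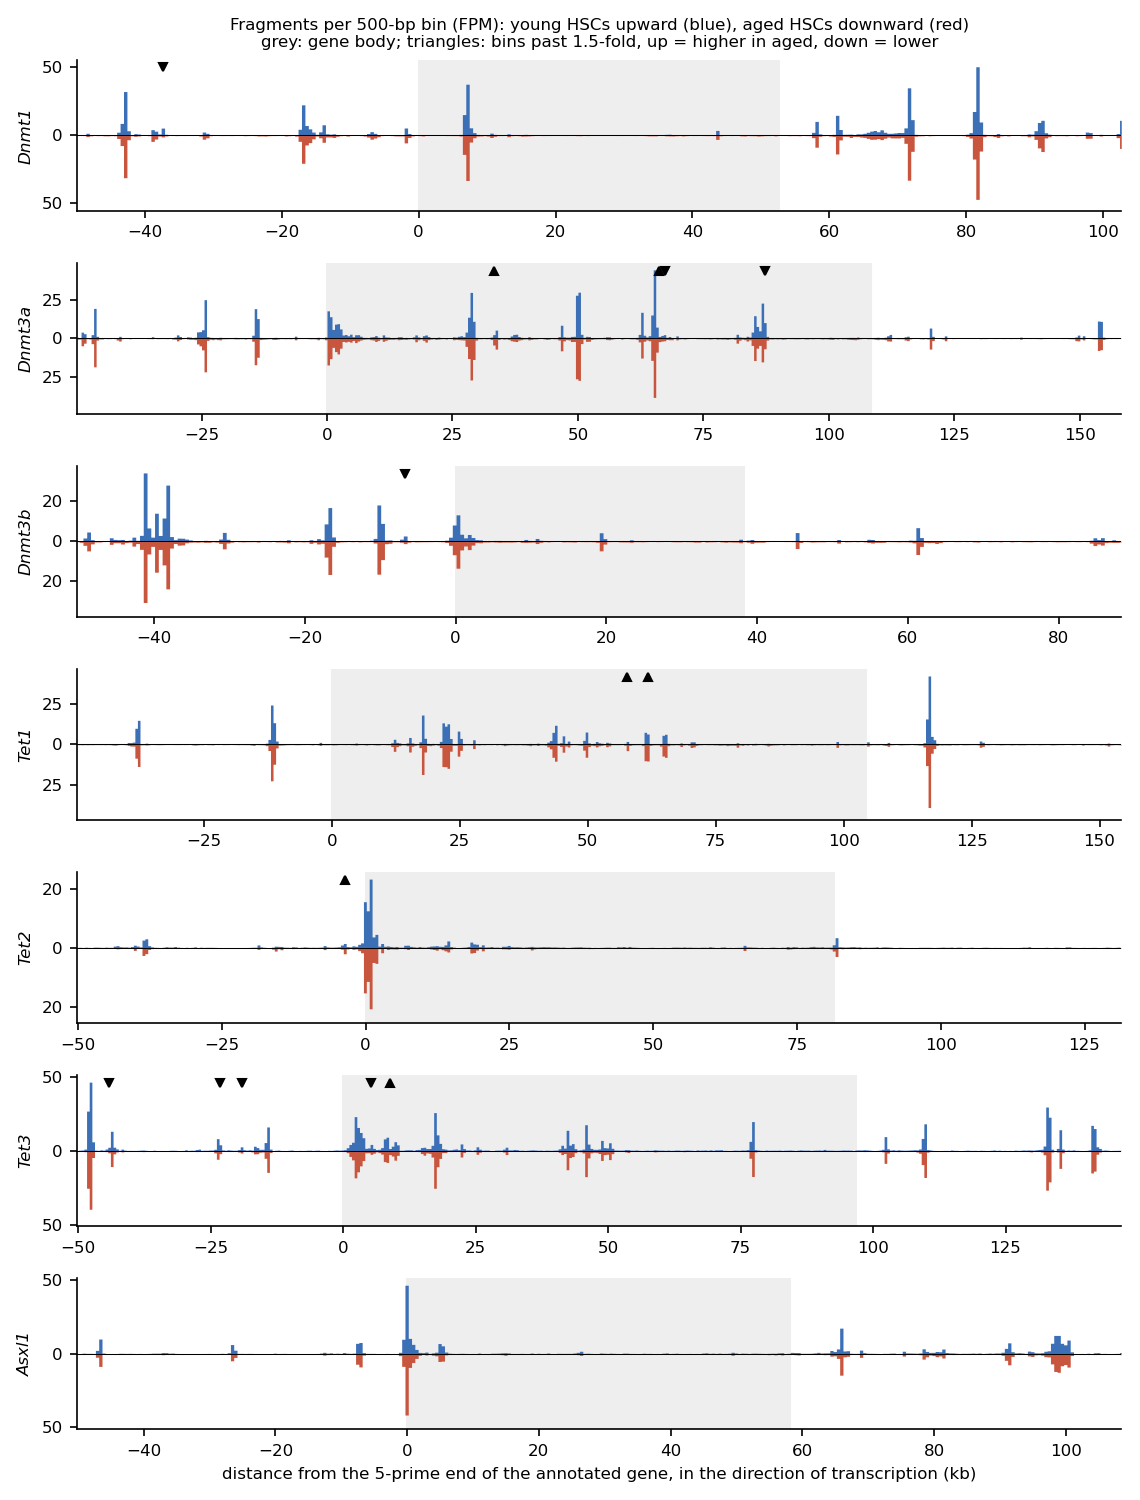
Fragments per 500-bp bin (FPM) over each gene body (grey) and 50 kb on either side, against the distance from the gene 5' end in the direction of transcription (kb). Young HSCs are drawn upward in blue and aged HSCs downward in red, and triangles mark the 14 bins past 1.5-fold with at least 100 fragments; the gene bodies of Dnmt3a, Tet1 and Tet3 show many internal peaks, and the strongest peak drawn for Dnmt1 lies in its downstream flank, in an exon of Angptl6, with 61.8 FPM in young HSCs.

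The 7 loci, each the gene body with 50-kb flanks, held 190 peaks, of which 121 had at least 100 fragments over both libraries. At a limit of 1.5-fold, 1 of the 121 was higher and 5 were lower in aged HSCs, which is 0.826% and 4.13%. Over all peaks with as many fragments 9.63% were higher and 4.01% were lower. The pooled share of lower peaks is near the background, and that of higher peaks is below it. All 6 calls fell among the 47 peaks of 100 to under 300 fragments, where 2.13% were higher and 10.6% lower, against 15.4% and 6.72% of all peaks of that strength. With scaling to all fragments 8 peaks passed. The 2 added ones, both lower, were a stronger intronic Dnmt3a peak and the weaker S1pr2 start peak described below. The median log2 ratio of the 121 peaks was -0.11, against 0.00 over all peaks. Because the median falls with peak strength over the genome, the values were also set side by side by strength. It was -0.07 for 47 locus peaks of 100 to under 300 fragments against 0.07 for all such peaks, -0.11 for 35 locus peaks of 300 to under 1000 fragments against 0.01, and -0.12 for 39 locus peaks of at least 1000 fragments against -0.08. In the 500-bp bins, 6 of 296 bins with at least 100 fragments were higher and 8 lower, or 2.03% and 2.70%, against 9.01% and 2.9% over the genome.

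Inside the genes and away from starts, Tet1 differed from Dnmt3a and Tet3, the other genes with many internal peaks. These peaks lie within the gene bodies, so their fragments were already counted there. The 19 internal peaks of Tet1 summed to 84.0 FPM (80.9 to 87.1) in young HSCs and 93.7 FPM (90.0 to 97.5) in aged HSCs, a log2 ratio of 0.16 (0.08 to 0.24). This sum includes the higher intronic Tet1 peaks described in the next paragraph, and the ratio of the body or the sum without them was not determined. The 19 internal peaks of Dnmt3a summed to 228 FPM (223 to 233) and 205 FPM (199 to 210), a ratio of -0.16 (-0.21 to -0.11). The 13 internal peaks of Tet3 summed to 104 FPM and 96.5 FPM, with a ratio of -0.10 (-0.18 to -0.03). Scaling to the median promoter ratio adds 0.05 to every log2 ratio, which takes the upper limit of this Tet3 interval above 0. The 4 peaks in the flanks of Tet1 away from any start went the other way and had 6.32 FPM in young and 4.17 FPM in aged HSCs (log2 ratio -0.59, interval -0.95 to -0.26). The starts of Dnmt3a, with 6 peaks, held 68.9 and 67.9 FPM, a ratio of -0.02 (-0.11 to 0.07).

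The single higher peak lay in an intron of Tet1. It spans chr10:62851071-62851380, 57770 bp downstream of the 5' end, and had 60 fragments in 59 young cells and 92 fragments in 90 aged cells. This corresponds to 1.73 and 3.52 FPM, a log2 ratio of 1.01 (0.54 to 1.52). Next to it lay 2 stronger intronic peaks that were also higher in aged HSCs, without reaching 1.5-fold, and that were picked out after their values were seen. The peak at chr10:62847051-62847740 had 10.4 and 14.8 FPM (0.52, interval 0.31 to 0.73), and that at chr10:62843761-62844390 had 9.10 and 11.8 FPM, a ratio of 0.38 (0.15 to 0.61). Fragments 1 to 3 kb away from the centres of the 3 peaks gave intervals of the ratio that included 0. Another intronic peak closer to the 5' end, chr10:62896741-62897010, was also picked out after its values were seen. It had 106 fragments in each library, which is 3.06 and 4.06 FPM and a ratio of 0.41 (0.00 to 0.81). Scaling to all fragments shifts every log2 ratio by -0.03, which takes the lower limit of this interval below 0.

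The largest difference in the 7 loci was a lower peak in the upstream flank of Dnmt1. The intergenic peak at chr9:20997011-20997450, at -37343 bp relative to the Dnmt1 5' end, that is upstream of it, and 5507 bp from the start of Mrpl4, had 182 fragments in 173 young cells and 31 fragments in 30 aged cells. Its level was 5.26 FPM in young HSCs and 1.19 FPM in aged HSCs, a log2 ratio of -2.11 (-2.75 to -1.59). The surroundings, counted by fragment starts 1 to 3 kb from its centre, had 187 young and 148 aged fragments. This is 5.40 and 5.66 FPM, a ratio of 0.07 (-0.25 to 0.39). Within this range lies a neighbouring peak, chr9:20998421-20998650, with at least 1 end of 160 young and 122 aged fragments. The overlap of these counts was not determined. No cell of either library contributed more than 2 fragments to the lower peak at chr9:20997011-20997450. A further peak in this flank, chr9:20973701-20974080, lies at a start of S1pr2, the gene of a sphingosine-phosphate receptor. It was picked out after its values were seen and had 7.85 and 5.28 FPM, a ratio of -0.57 (-0.88 to -0.27). A stronger peak at another S1pr2 start, chr9:20976211-20977240, had 27.2 and 25.6 FPM, a ratio of -0.08 (-0.23 to 0.06).

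The other 4 lower peaks were weak. The peak upstream of Dnmt3b, chr2:153642501-153642680, lies 6859 bp before the 5' end and had 81 fragments in 75 young cells and 26 fragments in 26 aged cells, which is 2.34 and 0.995 FPM and a log2 ratio of -1.20 (-1.93 to -0.58). A peak inside the Tet3 gene, chr6:83417641-83417810, had 3.003 and 1.76 FPM (-0.75, interval -1.30 to -0.26). Its centre lies in an annotated exon, but whether that exon belongs to Tet3 or to an overlapping gene was not determined. A peak past the 3' end of Dnmt3a, 112044 bp downstream of its 5' end, chr12:3917831-3918270, had 3.12 and 2.03 FPM (-0.61, interval -1.12 to -0.13), and an intronic Tet2 peak, chr3:133530701-133531080, had 2.22 and 1.45 FPM (-0.59, interval -1.21 to -0.03). The last 2 calls depend on the processing: over 8 alternatives the Dnmt3a peak fell short of 1.5-fold in 6, with a ratio of -0.22 when cells were thinned to 3000 in-peak fragments, and the Tet2 peak in 4, with ratios from -0.87 to -0.50. No peak of the Asxl1 locus passed the limit, and its ratios ran from -0.36 to 0.18.

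Dnmt3a held stronger intronic peaks that were lower without reaching 1.5-fold, of which the first 2 below were picked out after their values were seen. The peak at chr12:3892521-3893220, 1127 bp from the downstream Dnmt3a start, had 920 young and 470 aged fragments, which is 26.6 and 18.0 FPM and a log2 ratio of -0.56 (-0.73 to -0.40). The peak at chr12:3868521-3868910 had 16.8 and 12.8 FPM, a ratio of -0.39 (-0.59 to -0.19). The strongest peak of the locus, chr12:3870821-3871680, had 53.6 and 47.6 FPM, a ratio of -0.17 (-0.28 to -0.07). Of 25 Dnmt3a locus peaks with at least 100 fragments, 7 had ratios above 0, and the interval of 1, an intronic peak, lay above 0. This peak, chr12:3839421-3839800, had 188 and 194 fragments, which is 5.43 and 7.42 FPM and a ratio of 0.45 (0.15 to 0.75).

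The central 300 bases of 8 of these peaks are printed to show the sequence at the largest differences in each direction. They are the 4 highest and the 4 lowest ratios among the locus peaks whose central window lies outside annotated exons, a rule made after the values were seen. The lower peak inside Tet3, chr6:83417641-83417810, lies in an annotated exon and is therefore not shown. The windows were read from the plus strand of GRCm38.p6 (mm10 coordinates). Capitals mark matches to any of 10 fixed motifs on either strand. The motif of AP-1, the dimer of Jun and Fos proteins, was written as TGANTCA. N stands for any base, so that TGAATCA and TGATTCA counted beside TGAGTCA and TGACTCA. That of the myeloid and lymphoid factor PU.1 was written as GAGGAAGT, and its last letters are shared with CCGGAAGT, which stood for other factors of the ETS family. The RUNX factors, which include the blood regulator Runx1, were given as TGTGGT. For the GATA factors the letters were AGATAA, and for the interferon regulatory factors (IRF) they were GAAANNGAA. The STAT factors, which act downstream of cytokine receptors, were given as TTCNNNGAA, and the homeobox factors of the MEIS family as TGACAG. An E-box was searched as CACGTG, and the zinc finger factors of the SP and KLF families (SP/KLF) as GGGCGGG. Capitals of neighbouring matches can run together.
Tet1 intron, higher, chr10:62851076-62851375: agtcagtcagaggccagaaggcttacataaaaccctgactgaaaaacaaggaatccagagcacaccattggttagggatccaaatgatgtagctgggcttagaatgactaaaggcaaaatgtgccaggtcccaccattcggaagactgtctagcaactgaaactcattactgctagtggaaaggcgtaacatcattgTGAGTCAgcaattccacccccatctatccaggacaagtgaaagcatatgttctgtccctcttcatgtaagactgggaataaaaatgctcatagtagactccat
Tet1 intron, higher, chr10:62847246-62847545: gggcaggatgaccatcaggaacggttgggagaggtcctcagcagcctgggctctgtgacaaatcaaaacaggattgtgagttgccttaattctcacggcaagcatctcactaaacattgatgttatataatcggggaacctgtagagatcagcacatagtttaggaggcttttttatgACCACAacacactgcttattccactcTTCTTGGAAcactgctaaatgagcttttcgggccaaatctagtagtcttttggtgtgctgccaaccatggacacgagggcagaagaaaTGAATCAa
Tet1 intron, higher, chr10:62896726-62897025: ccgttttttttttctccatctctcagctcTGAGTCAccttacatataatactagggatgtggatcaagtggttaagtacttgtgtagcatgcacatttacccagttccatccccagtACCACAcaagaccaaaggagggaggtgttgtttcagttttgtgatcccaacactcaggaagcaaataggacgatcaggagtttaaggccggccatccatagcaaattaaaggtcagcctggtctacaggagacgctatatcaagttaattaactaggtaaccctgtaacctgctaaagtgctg
Dnmt3a intron, higher, chr12:3839461-3839760: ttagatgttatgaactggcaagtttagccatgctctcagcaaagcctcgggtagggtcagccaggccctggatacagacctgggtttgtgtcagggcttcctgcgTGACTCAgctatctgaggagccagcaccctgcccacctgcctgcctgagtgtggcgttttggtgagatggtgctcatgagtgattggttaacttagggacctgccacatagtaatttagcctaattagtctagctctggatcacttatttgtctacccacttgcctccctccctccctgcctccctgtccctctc
Dnmt3a downstream, lower, chr12:3917901-3918200: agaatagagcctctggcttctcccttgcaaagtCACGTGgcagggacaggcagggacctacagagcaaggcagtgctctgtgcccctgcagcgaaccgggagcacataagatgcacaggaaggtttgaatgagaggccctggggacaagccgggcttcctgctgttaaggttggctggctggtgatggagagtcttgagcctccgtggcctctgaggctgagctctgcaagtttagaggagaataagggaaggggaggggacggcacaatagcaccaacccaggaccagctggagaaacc
Tet2 intron, lower, chr3:133530741-133531040: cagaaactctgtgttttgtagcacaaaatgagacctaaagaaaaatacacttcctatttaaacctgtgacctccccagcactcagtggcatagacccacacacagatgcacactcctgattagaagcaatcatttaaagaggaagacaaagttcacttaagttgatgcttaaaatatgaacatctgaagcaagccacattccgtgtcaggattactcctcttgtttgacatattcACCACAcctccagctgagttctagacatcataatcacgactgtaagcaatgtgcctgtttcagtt
Dnmt3b upstream, lower, chr2:153642441-153642740: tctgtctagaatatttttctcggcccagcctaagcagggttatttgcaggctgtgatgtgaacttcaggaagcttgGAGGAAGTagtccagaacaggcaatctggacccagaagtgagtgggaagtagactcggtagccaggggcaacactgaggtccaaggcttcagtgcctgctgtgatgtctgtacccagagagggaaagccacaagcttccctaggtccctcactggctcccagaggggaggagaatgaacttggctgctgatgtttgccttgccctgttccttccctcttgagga
Dnmt1 upstream, lower, chr9:20997081-20997380: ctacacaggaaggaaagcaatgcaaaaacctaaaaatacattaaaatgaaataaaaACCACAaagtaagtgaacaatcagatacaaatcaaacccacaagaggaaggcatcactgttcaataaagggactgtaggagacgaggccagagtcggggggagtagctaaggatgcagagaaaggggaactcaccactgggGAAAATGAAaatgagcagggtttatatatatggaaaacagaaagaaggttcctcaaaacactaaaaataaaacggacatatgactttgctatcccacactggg
Each of the 4 higher windows holds an AP-1 match, which in the Tet1 window chr10:62847246-62847545 is TGAATCA. The next ratio down, that of the Tet1 intron peak chr10:62843761-62844390 (0.38), goes with STAT and SP/KLF letters and no AP-1 match. The lower windows share no single match: that of Dnmt3b holds PU.1 letters, that of Dnmt3a an E-box, that of Tet2 RUNX letters, and that of Dnmt1 RUNX and IRF letters. The windows were chosen for their ratios, so the matches are a description and not sites.

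Over all 121 peaks of the loci, 13 windows held the AP-1 letters, or 10.7%, against 11.4% of the 97246 peaks over the genome with as many fragments. Their median log2 ratio was 0.10, with 8 of 13 above 0, and the median over all peaks with the letters was 0.11. The letters did not go with 1 direction at every gene. All 5 windows with AP-1 letters in the Tet1 locus had ratios above 0, from 0.10 to 1.01, and so did 2 in the Dnmt3a locus and 1 in the Dnmt1 locus, whereas 3 in the Tet3 locus and 2 in the Asxl1 locus were below 0. The PU.1 letters were found in 9 windows, or 7.44% against 7.14% over the genome, with a median of -0.36 and 1 of 9 above 0, against a median of -0.09 over all peaks with the letters. None of the PU.1 windows lay in the loci of Dnmt1, Tet1 or Tet2. RUNX letters were in 25.6% of locus windows and 26.6% of these genome windows, and GATA letters in 5.79% and 12.7%. IRF letters were in 9.09% and 11.3%, STAT letters in 9.09% and 8.83%, and MEIS letters in 15.7% and 19.9%. ETS letters were in 1.65% and 1.39%, E-box letters in 7.44% and 5.89%, and SP/KLF letters in 11.6% and 12.4%.

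**Figure D3:**
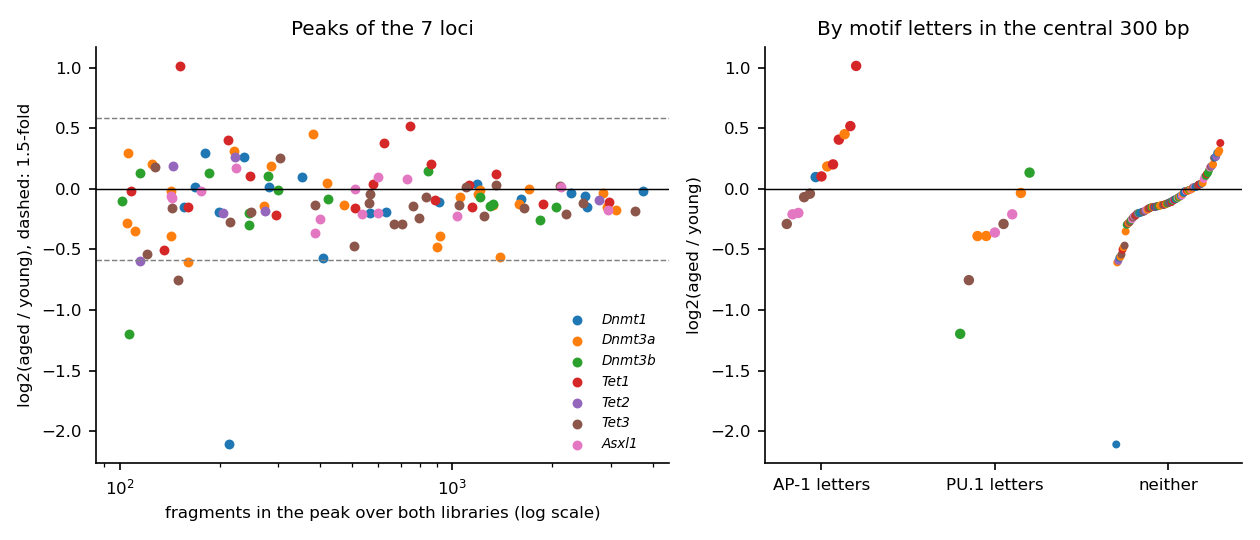
Left, log2(aged / young) of the 121 peaks in the 7 loci against their fragments over both libraries (log axis), coloured by gene, with the 1.5-fold limits dashed. Right, the same ratios for peaks whose central 300 bp hold AP-1 letters, PU.1 letters or neither; 2 peaks with both are drawn in both columns, and 2 Tet1 peaks (red) are the highest of the AP-1 column.

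The data of single cells were sparse at each gene. With each cell thinned to 3000 in-peak fragments, 4786 young and 3271 aged cells remained, and 101 and 133 shallower cells were left out. A fragment at the main start of Asxl1 was found in 17.2% of young cells (16.1% to 18.3%) and 15.7% of aged cells (14.5% to 17.0%). For Tet3 the shares were 13.2% and 11.5%, for Tet2 13.9% and 12.8%, for Dnmt1 12.6% and 11.5%, and for Dnmt3a 11.5% and 10.8%. For Tet1 they were 7.27% (6.55% to 8.04%) and 8.32% (7.39% to 9.31%), and for Dnmt3b 5.98% and 6.24%. The intervals of the libraries overlapped for each of the 7 genes. Without thinning, at the median depths given above, the share was higher in aged cells for 5 genes: Tet1 (15.4% and 18.7%), Dnmt3b (13.9% and 15.01%), Dnmt1 (26.9% and 27.4%), Dnmt3a (23.9% and 25.4%) and Tet2 (28.8% and 29.3%). The order of the libraries thus turned with thinning for Dnmt1, Dnmt3a and Tet2. It stayed for Asxl1 (34.2% and 33.2%) and Tet3 (28.4% and 26.1%). At promoters of 4 genes of other tissues the share in young cells was 0.0209% for Ins2, 0.0627% for Alb, 0.251% for Myh6 and 1.09% for Neurod1. In aged cells it was 0.0917% for Alb, 0.214% for Myh6 and 1.25% for Neurod1, and 0 of 3271 cells had a fragment at Ins2, which allows a share of up to 0.0917% by 3 counts and 0.113% by the exact binomial interval. At the closed 5' ends it was 0.167% and 0.183% for Dnmt1, 0.293% and 0.153% for Tet1 and 0.627% and 0.642% for Tet3. All were within the range of these promoters. The Tet3 shares and the young Tet1 share were above those of Ins2, Alb and Myh6, so that only Neurod1 lay above them. At least 1 of the 7 main starts carried a fragment in 58.1% of young cells (56.7% to 59.5%) and 55.5% of aged cells (53.8% to 57.2%). In pooled fragments, fewer cells with an open site and less opening per cell cannot be told apart.

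**Figure D4:**
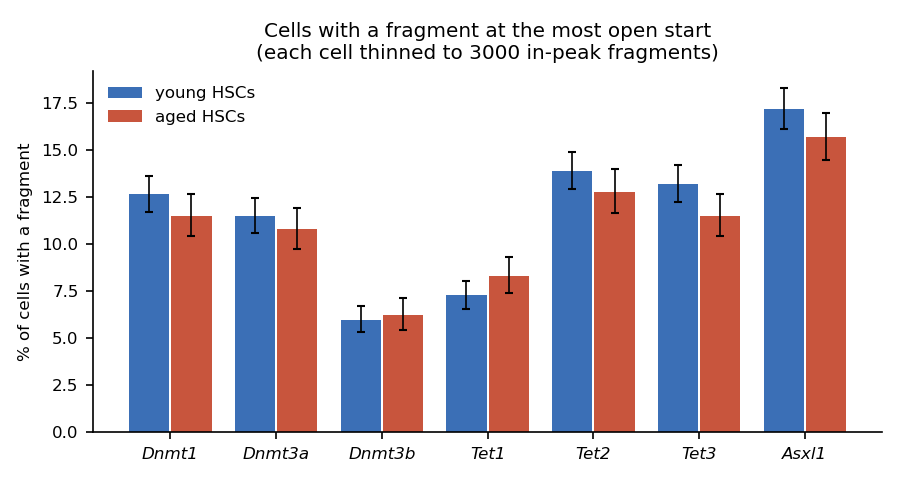
Share of cells (%) with at least 1 fragment within 1 kb of the most open start of each gene, in the young (blue) and aged (red) library, with cells thinned to 3000 in-peak fragments each; error bars are exact binomial 95% intervals. The bars of the libraries overlap in their intervals at every gene, and with this thinning only Tet1 and Dnmt3b have the higher share in aged cells, whereas without it Dnmt1, Dnmt3a and Tet2 have it as well.

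The partners of the 7 genes were examined through 5 lists with 66 genes in all, of which 64 had at least 20 fragments at the gene 5' end. Past 1.2-fold, 3 were higher and 3 lower in aged HSCs, which is 4.69% each against the background of 13.6% and 8.41%, and none of the 50 with at least 1000 fragments passed, where 1.79% of all promoters were higher and 1.85% lower, so 0 of 50 is near the background. With scaling to all fragments 9 partners passed, among them Mbd4 and Ogt, which have over 1000 fragments. The median log2 ratio was -0.08, against -0.05 over all promoters. Among 13 measured partners of maintenance and de novo methylation, 1 was higher and 3 lower. Nsd1, which methylates histone H3 in a manner read by Dnmt3a, had 13.9 FPM in young HSCs and 10.2 FPM in aged HSCs, a log2 ratio of -0.44 (-0.66 to -0.22). Zfp57, a zinc finger protein that keeps imprinted regions methylated, had 2.51 and 3.48 FPM (0.47, interval 0.03 to 0.91). Uhrf1, which brings Dnmt1 to newly replicated DNA, had 41.3 and 36.0 FPM (-0.20, interval -0.32 to -0.08) and did not pass 1.2-fold. Dnmt3l and Usp7 were lower with under 100 fragments.

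Of 14 measured readers of CpG, 1 was higher and none lower. Cxxc4, whose CXXC domain binds unmethylated CpG and which binds Tet2, had 9.88 and 12.9 FPM, a log2 ratio of 0.38 (0.16 to 0.61). Mbd4, a glycosylase that acts on deaminated methylcytosine, had 71.7 and 60.3 FPM (-0.25, interval -0.34 to -0.16), just short of 1.2-fold. Of 16 measured demethylation genes and TET partners none was lower and none with at least 100 fragments was higher. Tdg, the glycosylase that removes oxidized methylcytosine, had 46.3 and 44.0 FPM, and Ogt, the sugar transferase that binds TET proteins, had 26.9 and 22.7 FPM (-0.24, interval -0.40 to -0.10). None of the 10 ASXL and PR-DUB partners passed. Bap1, the deubiquitinase partner of Asxl1, had 55.4 and 50.8 FPM, and Asxl2 had 73.2 and 70.4 FPM. None of the 14 genes of methyl donor and 2-oxoglutarate metabolism passed either, and their ratios ran from -0.17 to 0.05, with Mat2a, which makes S-adenosylmethionine, at 72.0 and 63.8 FPM and Idh1 at 44.4 and 40.1 FPM.

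**Figure D5:**
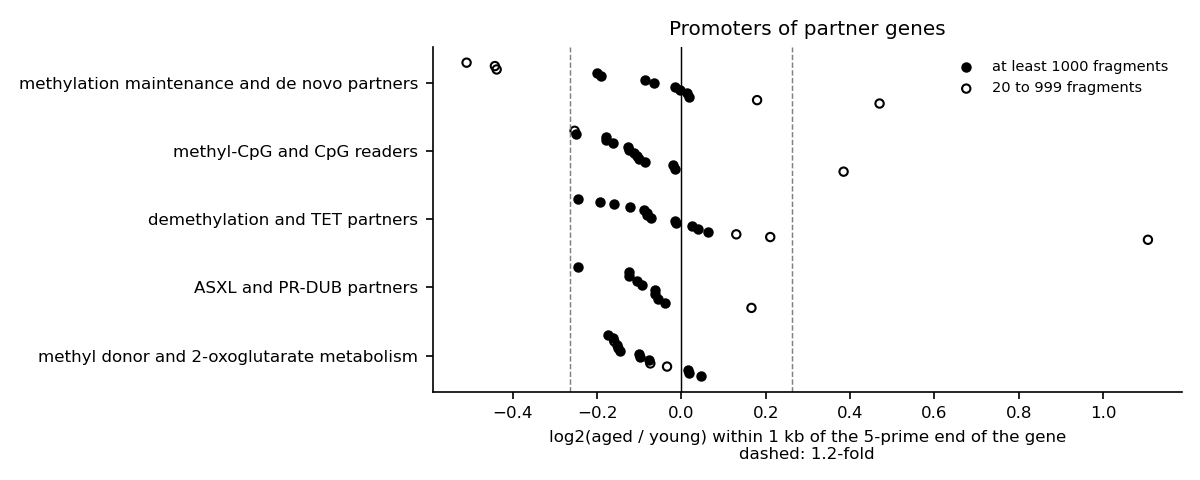
Each point is the log2(aged / young) of 1 partner gene within 1 kb of its 5' end, by list, for genes with at least 20 fragments; filled points have at least 1000 fragments and dashed lines mark 1.2-fold. All filled points lie inside the dashed lines, and the 6 genes outside them are open points.

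The protein-coding gene whose 5' end window had the most similar pair of values, by Euclidean distance over log2 FPM in the 2 libraries, was Cse1l for Asxl1 (60.3 and 53.5 FPM), Rplp0 for Tet2 (46.1 and 42.8 FPM), Snx25 for Dnmt3a (28.2 and 28.0 FPM) and Commd2 for Dnmt3b (22.2 and 21.6 FPM). For the nearly closed windows it was Slc10a1 for Dnmt1, 1700020A23Rik for Tet1 and Pou5f1 for Tet3. A likeness over 2 libraries is a description of levels only.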

How the data were processed

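Per the labels and the study's methods, libraries were made with the Chromium Next GEM Single Cell ATAC kit, and the authors aligned reads to mm10 and called cells in each library with Cell Ranger ATAC. The deposited files give unique fragments with their barcode and counts of read pairs or fragments per barcode, without normalization. All fragments in each list were accounted for by the authors' count per barcode.

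Barcodes called as cells with 3000 to 20000 in-peak fragments were used. Own peaks were made from transposase cuts in both libraries (Poisson, q 0.001, minimum width 100 bp, gaps of 50 bp merged). Each fragment with 1 or both ends inside a region added 1 to its count. GENCODE M21 gave genes and starts. Counts were made in Python 3.11.15 with numba 0.67.0, and intervals (95%: Poisson for levels, exact binomial for shares and ratios) with scipy 1.17.1; the counting and intervals were tested on simulated data. A limit of 1.2-fold (at least 20 fragments) applied to promoters and gene bodies, and 1.5-fold (at least 100 fragments) to peaks and bins. The rule for naming took all members and their starts, and partner genes past 1.2-fold with at least 100 fragments. It also took the strongest peak and the peaks with the highest and lowest ratio in each locus, and the gene most like each member. Of the peaks taken by this rule, those past 1.5-fold are all described, but several others are not. Other genes and peaks were named for their role or after their values were seen. The members, lists and motifs were chosen with earlier results of these data known. The values of 1 partner gene are not reported here.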

Additional observations from a re-analysis of the deposited data

How the results depend on the processing

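No paired analysis was possible because each age has 1 library, and for the same reason no replicate could be left out. Gene body calls stayed at 0 under all 11 alternatives, and the median promoter ratio of the 7 members stayed below 0, from -0.14 to -0.04. Promoter calls at the gene 5' ends, 0 as reported, were 1 with scaling to all fragments, 2 with all barcodes called as cells, 1 without doublets, 1 with thinned cells, 1 with windows of 500 bp and 1 with wider windows; these were the nearly closed windows of Dnmt1 or Tet1. A limit of 1.1-fold gave 4. At the most open starts, an alternative chosen after seeing the data, the count was 0, and the ratio of Tet1 ran from 0.15 to 0.24, of Tet3 from -0.25 to -0.16 and of Asxl1 from -0.20 to -0.11 over 8 alternatives. Peak calls, 6 as reported, were 1 with thinned cells, 17 from 50 fragments, 1 from 200 fragments and 8 with scaling to all fragments. Bin calls, 14 as reported, were 8 with fragments shorter than 150 bp, 5 with thinned cells and 49 from 50 fragments. Partner promoter calls, 6 as reported, were 10 with short fragments and 9 with scaling to all fragments. Thinning and the fragment limits change how many regions are counted. The 6 called peaks kept their direction under 8 alternatives, with the Dnmt1 flank peak between -2.39 and -1.75, but the Dnmt3a peak fell short of 1.5-fold in 6 of them and the Tet2 peak in 4. Scaling to all fragments shifts every log2 ratio by -0.03, and scaling by the median promoter ratio by 0.05. The latter turned the ratios of the most open starts of Dnmt3a and Dnmt3b and of the bodies of Dnmt3b and Tet2 above 0, by at most 0.03. Other alternatives turned the start of Dnmt3a (0.06 with short fragments), the start of Dnmt3b (0.04 with thinned cells) and the body of Dnmt3b (0.03 with short fragments) above 0.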
